A study of Oryza sativa and Arabidopsis thaliana with 24 samples.

Results

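Transfer-RNA fragments of rice root after salt were set against those of control root. The members are 4 small RNA libraries, chosen by their labels, of 14 rice libraries and 24 libraries in the whole series. Oryza sativa seeds were germinated at 30 °C for 2 d and grown in Yoshida's nutrient solution, changed every 3 d, at 28 °C with 14 h of light and 10 h of darkness. The salt group holds 2 libraries of root from seedlings kept in 300 mM NaCl for 8 h, and the control group holds 2 libraries of root from control seedlings. The cultivar, the age of the seedlings and the solution that bathed the control roots during those 8 h are not given. RNA of the whole root was extracted with TRIzol, pretreated with a kit (rtStar) for tRNA fragments, and made into small RNA libraries. The series counts its replicates as biological, 2 for each sample. Set beside them below are shoots of salt-treated and control seedlings, and roots of seedlings kept at 4 °C in constant light for 8 h, with 2 libraries each. The tables hold only tRNAs and their fragments, so the organ label could not be checked against marker genes. In RNA of a whole root, fewer cells of a type and less RNA per cell cannot be told apart.

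A tRNA carries an amino acid to the ribosome and folds into a cloverleaf, with a D loop near the 5' end, an anticodon loop in the middle, a T loop near the 3' end and an added CCA tail. Cuts in or near the anticodon loop give 5'-halves and 3'-halves. Shorter pieces are called tRF-5 where they start at the tRNA's 5' end and tRF-3 where they end at its 3' end. Class II tRNAs, which are those for Ser and Leu and in organelles also Tyr, have a long variable arm between the anticodon and T arms. Release of such fragments under stress is known in plants and other eukaryotes.

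The tRNAs on which the results turn are shown with the anticodon in capitals, as the DNA letters of the deposited table. They are the nuclear His and Glu tRNAs whose fragments rose, and the mitochondrial Tyr and nuclear Ser tRNAs, both class II, whose fragments fell. A first locus on the table's own coordinates, whose rice build is not given in the sources used here, stands before each.
os_tR130, His-GTG, 9 loci, first at chr10:20741052-20741123, plus strand: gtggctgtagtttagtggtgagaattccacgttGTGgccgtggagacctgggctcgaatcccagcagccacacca
os_tR107, Glu-TTC, 1 locus, chr7:1220492-1220565, plus strand: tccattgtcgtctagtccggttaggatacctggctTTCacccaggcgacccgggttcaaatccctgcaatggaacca
os_tR279, mitochondrial Tyr-GTA, 3 loci, first at chrM:363110-363192, plus strand: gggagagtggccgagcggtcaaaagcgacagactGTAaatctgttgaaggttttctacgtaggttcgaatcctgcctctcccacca
os_tR246, Ser-TGA, 4 loci, first at chr11:585867-585948, plus strand: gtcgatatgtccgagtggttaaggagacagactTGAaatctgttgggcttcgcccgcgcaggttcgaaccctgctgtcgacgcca

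Fragments that rose are cut from the His and Glu tRNAs in or beside the anticodon loop. Any anticodon bases they hold are in capitals. They differ in how far past the stem they reach, which is why the 3 His fragments are set together. The authors' classes overlap in length, with tRF-5 of 17 to 37 nt and 5'-halves of 34 to 40 nt, so a long tRF-5 can end in the anticodon loop too.
His-GTG tRF-5, 31 nt: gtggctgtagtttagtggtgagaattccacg
His-GTG tRF-5, 33 nt: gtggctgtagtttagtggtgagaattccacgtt
His-GTG 5'-half, 35 nt: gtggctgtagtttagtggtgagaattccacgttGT
Glu-TTC 5'-half, 35 nt: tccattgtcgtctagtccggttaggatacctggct
Glu-TTC tRF-5, 32 nt: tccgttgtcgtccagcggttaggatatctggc

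Short tRF-5 fragments end in the D loop. The last base is in capitals here, because members of a pair share every base but this one and did not always move together.
Ala-TGC, 20 nt: ggggatgtagctcaaatggT
Ala-TGC, 21 nt: ggggatgtagctcaaatggtA
Ala-CGC, 20 nt: gggggtgtagctcatatggT
Ala-CGC, 21 nt: gggggtgtagctcatatggtA
Gly-TCC, 18 nt: gcgtctgtagtccaacgG
Gly-TCC, 19 nt: gcgtctgtagtccaacggT
Arg-CCT, 18 nt: gcgcctgtagctcagtgG
Arg-CCT, 19 nt: gcgcctgtagctcagtggA
Arg-ACG, 18 nt: gactccatggcccaatgG
Asn-GTT, 19 nt: gctggagtagctcagttgG

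The mitochondrial Tyr fragments that fell run from the variable arm to the CCA tail, whose bases are in capitals.
Mitochondrial Tyr-GTA tRF-3, 33 nt: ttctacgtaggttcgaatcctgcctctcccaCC
Mitochondrial Tyr-GTA tRF-3, 34 nt: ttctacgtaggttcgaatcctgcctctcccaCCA
Mitochondrial Tyr-GTA tRF-3, 35 nt: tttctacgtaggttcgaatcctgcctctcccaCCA

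Levels are in RPM (reads scaled to the depth of the library), recovered from the deposited log2 values. The table of tRF totals held 442885 and 710551 reads in the salt libraries and 358133 and 570783 in the control libraries. The tRNA table was shallower, with 29173 and 45682 reads in salt and 34408 and 53345 in control, so single tRNAs carry more counting error than tRF totals. In all 7 rice groups, the read total that scales library 1 was 0.674 to 0.711 of that of library 2 for the tRNA table, and 0.619 to 0.631 for the tRF tables. Replicates of each group differed by more than counting noise. The ratio was nearly constant, and beyond the series' own count of replicates nothing here shows that the libraries of a group came from separate plants. The p-values measure only the spread between these libraries, which may be technical.

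Salt libraries held a larger share of fragment RPM in 5'-halves and a smaller one in tRF-3 and 3'-halves. Among the individual fragments, 5'-halves held 20.4% and 20.3% of the summed RPM in salt, against 13.8% and 13.7% in control. The tRF-3 class held 6.98% and 7.05% in salt, against 10.6% in both control libraries. The 3'-halves held 25.4% and 24.8% in salt, against 30.7% and 30.0% in control. Salt and control libraries did not overlap in any of these shares, and the replicates lay within 1 percentage point of each other. Single families weigh heavily in these shares. Glu-TTC 5'-halves had 6988 and 7040 RPM in salt and 3742 and 3653 RPM in control. Glu-CTC 3'-halves had 1816 and 1760 RPM in salt and 4178 and 4121 RPM in control. Of 45 family sums of 5'-halves, 30 were not called, with a median log2 change of 0.04 over the 45. Of the 31 shares compared, 30 had no overlap; an exact two-sided permutation test of 2 against 2 libraries has 6 arrangements and cannot give a p below 0.33, which those 30 shares reached, so that no adjusted value could be lower. The exception was the share of 3' fragments that end in the full CCA, at 34.1% and 34.8% in salt and 34.5% and 34.4% in control; without mismatched fragments it was lower in salt by 3.13 points. The tRF-5 class was higher in salt, at 47.2% and 47.9% against 44.8% and 45.7% in control, but that difference of 2.28 points turned to -1.87 when only fragments without a mismatch were counted. Fragments with a mismatch to the tRNA held 22.3% and 22.5% of the RPM in salt and 28.9% and 28.8% in control.

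Fragment length shifted as well. Fragments of 18 to 20 nt held 20.5% and 20.6% in salt, against 26.3% and 26.6% in control. Those of 21 to 23 nt were scarce but higher, at 1.31% and 1.37% in salt against 0.730% and 0.800% in control. Those of 28 nt and longer held 71.4% and 70.9% in salt, against 66.9% and 66.6% in control. The 18 to 20 nt band, the size of D-loop cuts, was lower in salt, and the bands above it were higher.

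**Figure D1:**
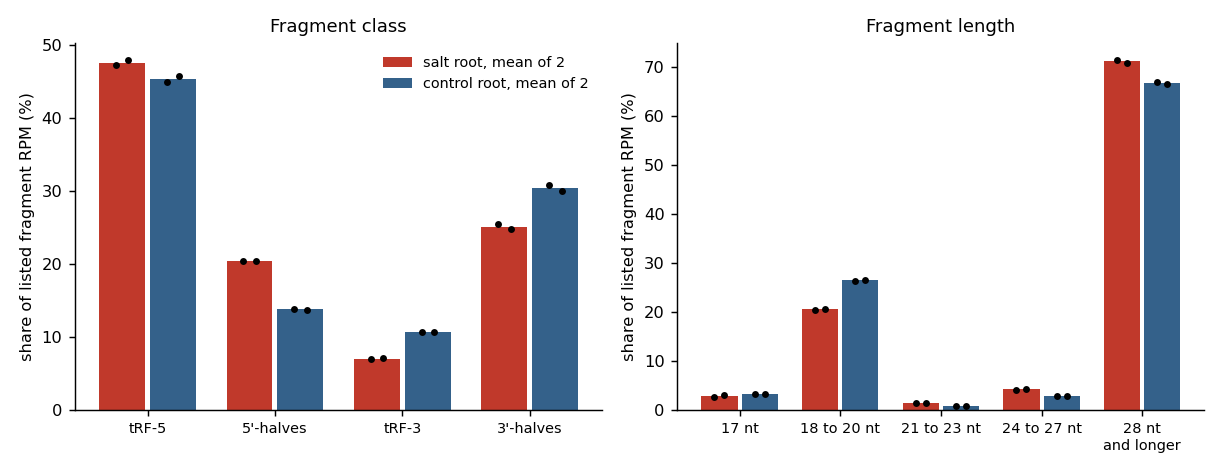
Share of the summed RPM of individual tRFs (percent, from 0) by fragment class and by length, with salt in red on the left and control in blue on the right, 1 point per library and the mean as the bar. The 5'-halves sit near 20% in salt and near 14% in control, and the 18 to 20 nt band near 21% in salt and 26% in control.

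Across the table of tRF totals, 154 of 272 tested tRNAs were called (56.6%): 57 gave more fragments in salt (21%) and 97 gave fewer (35.7%), at an adjusted p under 0.05 in limma. The totals of tRNAs with near-identical sequence share reads, so neighbouring tRNAs of 1 family are not independent. Sums and shares of such totals may count 1 read more than once. Summed to families (origin, amino acid and anticodon), 74 of 106 were called (69.8%), of which 25 rose (23.6%) and 49 fell (46.2%). Summed to family and fragment class, 106 of 266 were called (39.8%), of which 46 rose (17.3%) and 60 fell (22.6%). By class, 11 of 45 sums of 5'-halves rose and 4 fell, and 4 of 61 sums of 3'-halves rose and 15 fell. The counts of families did not follow the shares for the other classes: 14 of 80 tRF-5 sums rose and 27 fell, and 17 of 80 tRF-3 sums rose and 14 fell. Of the 2794 individual fragments, 296 were called (10.6%), of which 138 rose (4.94%) and 158 fell (5.65%). Among the 639 with a mean of at least 10 RPM, 65 were called with at least a doubling and 87 with at least a halving. Counts of individual fragments rest on every library: they were 76 and 90 without salt library 1, 81 and 104 without salt library 2, 85 and 85 without control library 1, and 100 and 95 without control library 2.

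Fragments of nuclear tRNA-His rose, with larger folds for the ones that reach farther into the anticodon loop. The tRF total of His-GTG, the only His anticodon here, was 4933 and 4807 RPM in salt against 2794 and 2669 RPM in control, a log2 rise of 0.83 ± 0.03 (SE; limma adjusted p = 2.56e-16). Of 3 His tRNAs tested for tRF totals, 2 rose and 1 fell. The main one, os_tR130, gave 3919 and 3798 RPM in salt against 1929 and 1833 RPM in control. Salt and control did not overlap at either level, as in 153 of 154 called tRF totals and 73 of 74 called families. His fragments went to 4.13% and 4.03% of the tRF table in salt, against 2.27% and 2.19% in control.

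The His 5' fragments printed above show the folds. The 31-nt tRF-5, which stops at base 31 below the loop, was 1014 and 992 RPM in salt and 413 and 447 RPM in control, 2.33-fold. The 33-nt tRF-5, which stops just before the anticodon, was 1062 and 999.9 RPM in salt and 242 and 209 RPM in control, 4.58-fold (log2 2.19 ± 0.11, limma adjusted p = 3.33e-11). The 35-nt 5'-half, which keeps the first 2 anticodon bases, was 205 and 208 RPM in salt and 17.2 and 20.9 RPM in control, 10.9-fold (log2 3.38 ± 0.23, limma adjusted p = 2.98e-09). All 3 had every salt library above every control library, and the groups did not overlap in any of the 296 called fragments. In control the 31-nt form was above the 33-nt form, while in salt the pair were about level. Differences between the folds of these forms were not tested.

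His 5' fragments moved as a class. Summed 5'-halves were 511 and 488 RPM in salt and 95.7 and 91.0 RPM in control, a log2 rise of 2.41 ± 0.12 (limma adjusted p = 7.97e-14). Of 6 single His 5'-halves, 5 rose and none fell; of 22 single His tRF-5, 8 rose and none fell. The 3'-halves of the same tRNA did not pass the test, at 77.9 and 80.3 RPM in salt and 101 and 99.8 RPM in control (log2 -0.34, limma adjusted p = 0.0589). The called rises were in 5' pieces, and no rise of 3'-halves was called.

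Fragments of nuclear Glu-TTC tRNAs rose as well. Their total was 16922 and 16843 RPM in salt against 8860 and 8784 RPM in control, a log2 rise of 0.94 ± 0.02 (limma adjusted p = 1.68e-19). All 5 Glu-TTC tRNAs tested rose, with a median of 1.09 against a median of -0.09 over all 272, but their totals can share reads. They went to 14.2% and 14.1% of the tRF table in salt, against 7.21% and 7.20% in control. The 35-nt 5'-half, which ends at base 33 just before the anticodon, matches 2 tRNAs, os_tR107 among them. It was 3043 and 3095 RPM in salt and 1478 and 1410 RPM in control, 2.13-fold. The 32-nt tRF-5 rose less, with 1350 and 1314 RPM in salt and 854 and 863 RPM in control, 1.55-fold. Of 151 single Glu-TTC fragments, 22 rose and 1 fell.

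Glu-CTC, which shares the amino acid and differs in the first anticodon base, did not follow. Its total was 31671 and 31876 RPM in salt and 34624 and 34921 RPM in control, a small called fall of 0.13 on the log2 scale (limma adjusted p = 2.70e-06). Its classes moved in different directions. Its 3'-halves fell to 1816 and 1760 RPM in salt, against 4178 and 4121 RPM in control (log2 -1.21 ± 0.06, limma adjusted p = 4.86e-14), and 16 of its 68 single 3'-halves fell with none rising. Its tRF-5 rose to 1676 and 1889 RPM in salt, against 1239 and 1352 RPM in control (log2 0.46, limma adjusted p = 1.35e-05), with 6 of 56 single tRF-5 up and 3 down. Its 5'-halves fell to 730 and 657 RPM in salt, against 1003 and 994 RPM in control (log2 -0.53), with 2 of 24 single 5'-halves down and none up. Over all families, 38 of 844 single 3'-halves rose and 44 fell, 61 of 794 single tRF-5 rose and 61 fell, and 29 of 278 single 5'-halves rose and 11 fell. The median log2 change of single Glu-CTC fragments was 0.08 for tRF-5 and 0.007 for 5'-halves, so these 2 sums do not describe most members. A 30-nt tRF-5 was 644 and 680 RPM in salt and 363 and 384 RPM in control.

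Other nuclear families that gave more fragments rose by less. The Gly-GCC total was 6939 and 6807 RPM in salt and 5725 and 5530 RPM in control (log2 0.29), with 5 of 6 tRNAs called up. The Met-CAT total was 1562 and 1559 RPM in salt and 1206 and 1103 RPM in control (log2 0.44), with 4 of 6 nuclear Met tRNAs called up. The Asp-GTC total was 1620 and 1664 RPM in salt and 1390 and 1365 RPM in control (log2 0.25), with 5 of 6 called up. None of these 3 families had a tRNA called down. Val-CAC 3'-halves also rose, with 242 and 261 RPM in salt and 95.4 and 83.1 RPM in control, 2.82-fold.

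**Figure D2:**
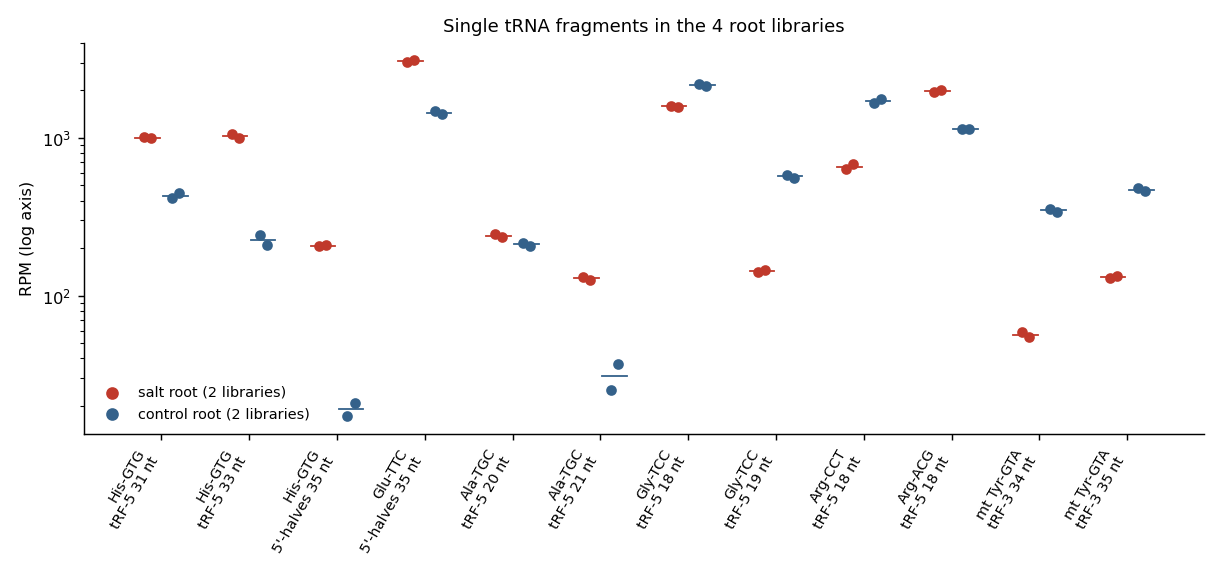
RPM on a log axis of the main printed fragments, 1 point per library with the mean as a line, salt in red on the left and control in blue on the right of each pair. The His-GTG 35-nt 5'-half shows a gap of 10.9-fold, and the mitochondrial Tyr fragments lie below control in both salt libraries.

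Summed RPM by cut position differed between salt and control in and beside the anticodon loop. Bases are numbered so that the anticodon is 34 to 36. Summed over all 5' fragments, those ending at base 31 had 2549 and 2587 RPM in salt and 1192 and 1270 RPM in control, 2.09-fold. Those ending at base 33, just before the anticodon, had 8413 and 8448 RPM in salt and 5140 and 5028 RPM in control, 1.66-fold. This sum holds the printed Glu-TTC 35-nt 5'-half, with means of 3069 RPM in salt and 1444 RPM in control. It also holds the His 33-nt tRF-5, with means of 1031 RPM in salt and 225 RPM in control. Ends at base 34, the first anticodon base, differed less, with 2294 and 2341 RPM in salt and 2135 and 2139 RPM in control. Among 3' fragments, those starting at base 35 had 417 and 381 RPM in salt and 1040 and 957 RPM in control. Those starting at base 36 had 2187 and 2107 RPM in salt and 3610 and 3625 RPM in control. Those starting at base 37, just past the anticodon, had 3042 and 3105 RPM in salt and 4489 and 4232 RPM in control. Starts at base 38 were slightly higher, with 3317 and 3272 RPM in salt and 3102 and 2982 RPM in control. Among the positions given here, salt was thus higher at 5' ends before the anticodon and lower at 3' starts from base 35 to 37.

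Single fragments were counted by position as well, against 4.94% rising and 5.65% falling over all. Of 57 fragments ending at base 31, 8 rose and 2 fell; of 64 ending at base 32, 9 rose and 3 fell. Of 116 ending at base 33, 12 rose and 8 fell, with a median log2 change of 0.08, so most fragments ending there were not called up. Rises were not confined to ends just before the anticodon. Of 83 ending at base 36, within the anticodon, 11 rose and 4 fell. Of 25 ending at base 26, nearer the 5' end, 8 rose and 1 fell. Of 25 starting at base 35, none rose and 5 fell; of 156 starting at base 36, 1 rose and 11 fell. Of 170 starting at base 37, 8 rose and 13 fell, and of 136 starting at base 38, 14 rose and 5 fell. Gly-GCC showed both signs within its 3'-halves. Its starts at base 35 had 241 and 221 RPM in salt and 669 and 625 RPM in control, and its starts at base 38 had 664 and 647 RPM in salt and 452 and 427 RPM in control, while their sum did not pass the test (log2 -0.14, limma adjusted p = 0.0724). Glu-CTC starts at base 37 had 410 and 396 RPM in salt and 1408 and 1359 RPM in control.

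**Figure D3:**
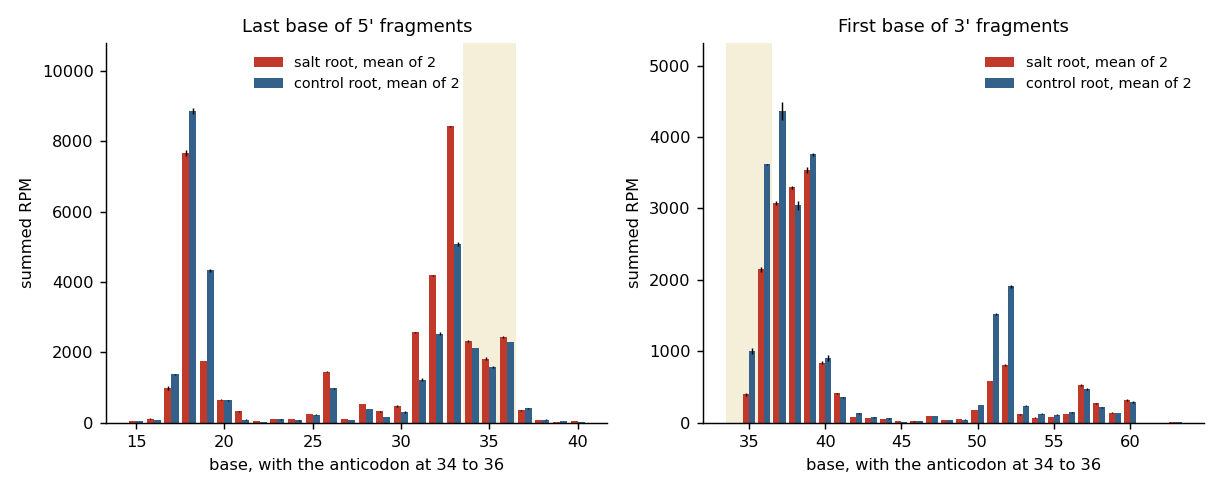
Summed RPM of individual tRFs by the base at which 5' fragments end and 3' fragments start, numbered with the anticodon at 34 to 36 (shaded), salt in red and control in blue, as bars for the mean with vertical lines for the range of the 2 libraries. Salt lies above control for 5' ends at bases 31 to 33, and below it for 5' ends at base 19 and for 3' starts at bases 35 to 37.

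In the D loop, ends at base 19 fell while ends at base 21 rose. Fragments ending at base 19 had 1748 and 1766 RPM in salt and 4385 and 4294 RPM in control. Those ending at base 21 had 319 and 339 RPM in salt and 84.1 and 100 RPM in control, 3.56-fold. Ends at base 20 were level, with 663 and 642 RPM in salt and 649 and 629 RPM in control. Of 74 fragments ending at base 19, none rose and 19 fell, with a median log2 change of -0.70. Of 21 ending at base 21, 6 rose and none fell, with a median of 0.52.

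Pairs that differ by 1 base are set side by side here, and their reads are among the sums above. The 21-nt Ala-TGC fragment was 131 and 125 RPM in salt and 25.0 and 37.0 RPM in control, 4.14-fold (log2 2.04 ± 0.15, limma adjusted p = 2.01e-08). The 20-nt form was 244 and 235 RPM in salt and 216 and 207 RPM in control, which did not pass the test (limma adjusted p = 0.0876). For the printed Ala-CGC pair, the 21-nt form was 62.0 and 66.9 RPM in salt and 13.4 and 11.7 RPM in control, a log2 rise of 2.27. Its 20-nt form did not pass, at 120 and 119 RPM in salt and 141 and 123 RPM in control. Both Ala pairs gained the longer form, without a called change in the shorter one.

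Short tRF-5 of Gly-TCC and Arg-CCT fell. The 19-nt Gly-TCC fragment was 140.0 and 146 RPM in salt and 585 and 558 RPM in control (log2 -1.99 ± 0.10, limma adjusted p = 4.99e-11). The 18-nt form, a base shorter, was 1594 and 1579 RPM in salt and 2186 and 2130 RPM in control (log2 -0.44). Salt lay below control in both forms, but by far more in the longer one. Arg-CCT lost both forms alike: its 18-nt fragment was 630 and 684 RPM in salt and 1665 and 1767 RPM in control, and its 19-nt fragment was 582 and 535 RPM in salt and 1425 and 1397 RPM in control. The Arg-CCT total was 1862 and 1875 RPM in salt and 3891 and 3965 RPM in control (log2 -1.07 ± 0.03, limma adjusted p = 1.05e-16), and 4 of its 5 tRNAs fell. The 18-nt Arg-ACG fragment went the other way, with 1941 and 2005 RPM in salt and 1143 and 1145 RPM in control, 1.72-fold. Over all 19 nuclear Arg tRNAs tested for tRF totals, 14 fell and 1 rose, with a median log2 change of -0.71.

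Asn-GTT fragments fell as a family. Their total was 378 and 389 RPM in salt and 913 and 950 RPM in control (log2 -1.28 ± 0.05, limma adjusted p = 6.73e-15). Of 8 nuclear Asn tRNAs, 7 fell and none rose, with a median of -1.27. The tRF-5 class carried most of it, at 258 and 271 RPM in salt and 736 and 788 RPM in control. The printed 19-nt fragment was 79.3 and 73.3 RPM in salt and 228 and 250 RPM in control.

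Class II tRNAs as a group gave fewer fragments, with the nuclear falls in Ser tRNAs apart from 1 Leu tRNA. They held 4.11% and 4.15% of the tRF table in salt, against 8.21% and 8.17% in control. Of 44 class II tRNAs, none rose and 26 fell, with a median log2 change of -0.73. Of 228 class I tRNAs, which have a short variable arm, 57 rose and 71 fell, with a median of -0.04. The class II list was drawn up after earlier results of these data were known.

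Of 14 nuclear Ser tRNAs, 13 fell and none rose, with a median of -0.98. The Ser-TGA total was 352 and 382 RPM in salt and 1109 and 1117 RPM in control (log2 -1.60, limma adjusted p = 9.51e-16). The Ser-CGA total was 701 and 676 RPM in salt and 1289 and 1279 RPM in control (log2 -0.90). Ser tRNA os_tR246, printed above, gave 285 and 302 RPM in salt and 905 and 887 RPM in control. Ser-AGA os_tR228 had the largest fall of the tRNAs named by the rule, to 11.1 and 13.1 RPM in salt against 77.9 and 78.2 RPM in control (log2 -2.60 ± 0.16, limma adjusted p = 8.71e-11). The Leu-CAA total was 1694 and 1692 RPM in salt and 3117 and 3093 RPM in control (log2 -0.87). Its tRNA os_tR150 was the 1 called fall among 12 nuclear Leu tRNAs, of which none rose, with a median of 0.07. No salt library overlapped a control library in the tRNAs named here, as in 153 of the 154 called tRF totals.

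Mitochondrial tRNAs gave fewer fragments too, whether class II or not. They held 1.02% and 1.06% of the tRF table in salt, against 2.59% and 2.44% in control. Of 14 mitochondrial tRNAs, none rose and 10 fell, with a median of -0.81; the 4 of class II all fell, and 6 of the 10 of class I fell. The 3 nuclear copies that resemble mitochondrial tRNAs fell as well. Tyr-GTA, the mitochondrial family with the highest fragment RPM, had a total of 511 and 479 RPM in salt and 1758 and 1637 RPM in control (log2 -1.78 ± 0.07, limma adjusted p = 3.36e-15). Gln-TTG, of class I, was 29.9 and 42.6 RPM in salt and 97.8 and 88.4 RPM in control (log2 -1.36).

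The mitochondrial Tyr tRF-3 fell at each of the 3 printed lengths. The 33-nt form, which lacks the final A, was 35.9 and 34.7 RPM in salt and 246 and 233 RPM in control (log2 -2.73 ± 0.27). The 34-nt form was 58.5 and 54.7 RPM in salt and 354 and 341 RPM in control (log2 -2.60 ± 0.13, limma adjusted p = 4.99e-11). The 35-nt form was 129 and 134 RPM in salt and 478 and 461 RPM in control (log2 -1.83). Of 23 single mitochondrial Tyr fragments, 10 fell and none rose. Plastid tRNAs moved less uniformly, with 5 of 24 up, 12 down and a median of -0.26.

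**Figure D4:**
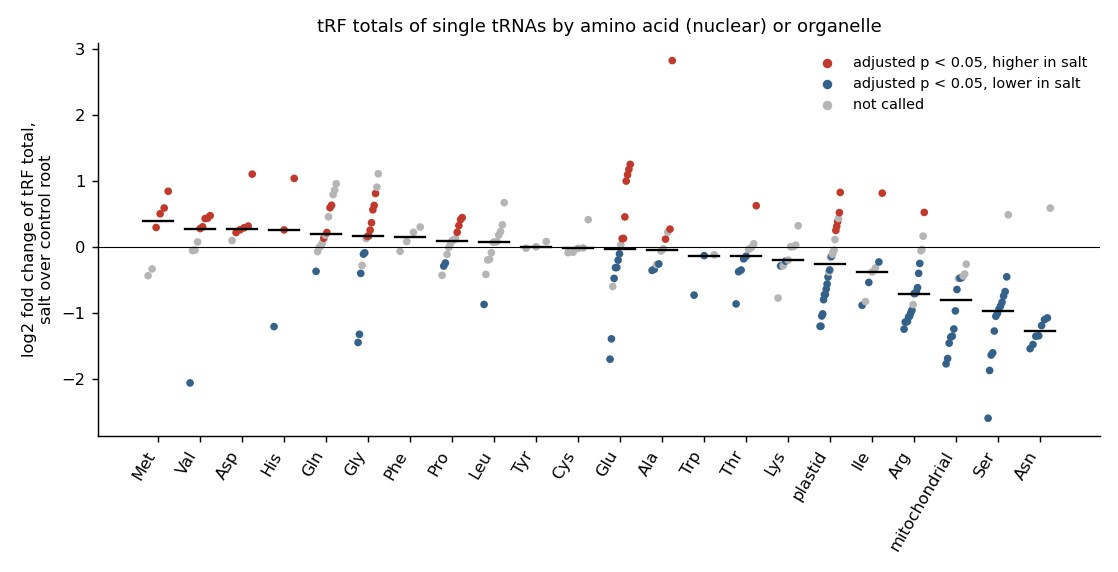
Log2 change of the tRF total in salt over control for each tested tRNA (points), grouped by amino acid for nuclear tRNAs or by organelle, with the group median as a black line and called tRNAs in red (higher) or blue (lower). The Ser, Asn, Arg and mitochondrial tRNAs lie mostly below 0, and 1 Ala tRNA of low level, os_tR10, stands at 2.82.

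The tRNA table shows whether fragments moved with the tRNA they come from. Of 244 tRNAs tested there, 66 were called (27%), of which 36 rose (14.8%) and 30 fell (12.3%); with libraries rescaled to equal table sums, 47 rose and 21 fell. Summed to families, 42 of 93 were called (45.2%), of which 25 rose (26.9%) and 17 fell (18.3%), against 31 and 10 after rescaling, which moved the family median by 0.16 on the log2 scale. Without control library 1, 13 families were called up. Fitted on the 4 root libraries alone, 15 tRNAs were called up and 21 down.

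Class II and plastid tRNAs held more of the tRNA signal in salt while their fragments held less. Class II tRNAs made up 33.9% and 32.8% of it in salt, against 29.5% and 29.3% in control, and 11 of 40 rose while 4 fell. Within class II, 5 of 13 nuclear Ser tRNAs rose and none fell, while 1 of 12 nuclear Leu tRNAs rose and 3 fell. Leu-CAG was lower in salt, at 9558 and 10469 RPM against 12620 and 13379 RPM in control (log2 -0.38). Plastid tRNAs made up 6.17% and 5.69% in salt, against 3.36% and 3.50% in control, and 10 of 23 rose while 2 fell. Plastid Asp-GTC was 1743 and 2030 RPM in salt and 922 and 1073 RPM in control, and plastid Glu-TTC was 1753 and 1588 RPM in salt and 1004 RPM in both control libraries. Among nuclear tRNAs, Ser-CGA was 9992 and 10487 RPM in salt and 7283 and 7370 RPM in control (log2 0.48), and Gln-CTG was 6145 and 6506 RPM in salt and 3781 and 3718 RPM in control (log2 0.75).

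Arg tRNAs were among the nuclear tRNAs that fell. Arg-TCT was 2659 and 3113 RPM in salt and 5986 and 6132 RPM in control (log2 -1.07), and Arg-ACG was 2345 and 2277 RPM in salt and 4800 and 4757 RPM in control (log2 -1.05). Of 18 nuclear Arg tRNAs, 7 fell and none rose. Leu-AAG os_tR147 fell to 126 and 98.8 RPM in salt, against 730 and 839 RPM in control (log2 -2.80, limma adjusted p = 2.90e-06). For these Arg families and for os_tR147 no salt library overlapped a control library, which held for all 66 called tRNAs and all 42 called families.

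The log2 ratio of tRF total to tRNA signal was then compared per tRNA; the tables are scaled by different totals, so the ratio has meaning only between libraries. Of 239 tRNAs, 44 were called (18.4%), of which 11 had a higher ratio in salt (4.6%) and 33 a lower one (13.8%). Leaving out salt library 2 raised the first count to 19, and a fit on the 4 root libraries alone called only 3 and 6. Class II tRNAs took 17 of the 33 falls, against 2 of the 11 rises, with a median of -1.22 over 40; class I tRNAs had 9 rises, 16 falls and a median of 0.02 over 199. The ratio fell for 10 of 13 nuclear Ser tRNAs and rose for none. Nuclear Leu tRNAs, also of class II, did not share this, with 1 rise, 1 fall and a median of 0.21 over 12. The Leu rise was that of Leu-AAG os_tR147 (log2 2.71). Plastid Ser-GCT os_tR236 had ratios of -3.82 and -3.78 in salt and -1.59 and -1.96 in control (log2 -2.02). Mitochondrial Tyr os_tR279 had 0.961 and 1.62 in salt and 4.61 and 4.18 in control (log2 -3.10, limma adjusted p = 0.00234), with a tRNA signal of 262 and 155 RPM in salt and 71.0 and 89.4 RPM in control. Its call in the tRNA table (limma adjusted p = 0.0289) was lost without salt library 1 and without either control library, and in the 4-library fit.

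Single His and Glu-TTC tRNAs are given as examples; no difference between these families was tested. His tRNA os_tR130 rose with its fragments, to 1717 and 1878 RPM in salt against 882 and 911 RPM in control, and its ratio was 1.19 and 1.02 in salt and 1.13 and 1.01 in control (log2 0.04, limma adjusted p = 0.931). Glu-TTC os_tR106 fell to 298 and 378 RPM in the tRNA table in salt, against 527 and 626 RPM in control (limma adjusted p = 0.041), while its ratio was 3.61 and 3.27 in salt and 1.64 and 1.36 in control (log2 1.95, limma adjusted p = 0.00562). Of the 5 nuclear Glu-TTC tRNAs, 2 rose and 1 fell in the tRNA table, and 2 had a higher ratio. Arg-ACG os_tR13 also had a higher ratio, 2.72 and 3.08 in salt and 1.12 and 1.19 in control. In the 4-library fit neither os_tR106 nor os_tR13 passed the test for its ratio.

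**Figure D5:**
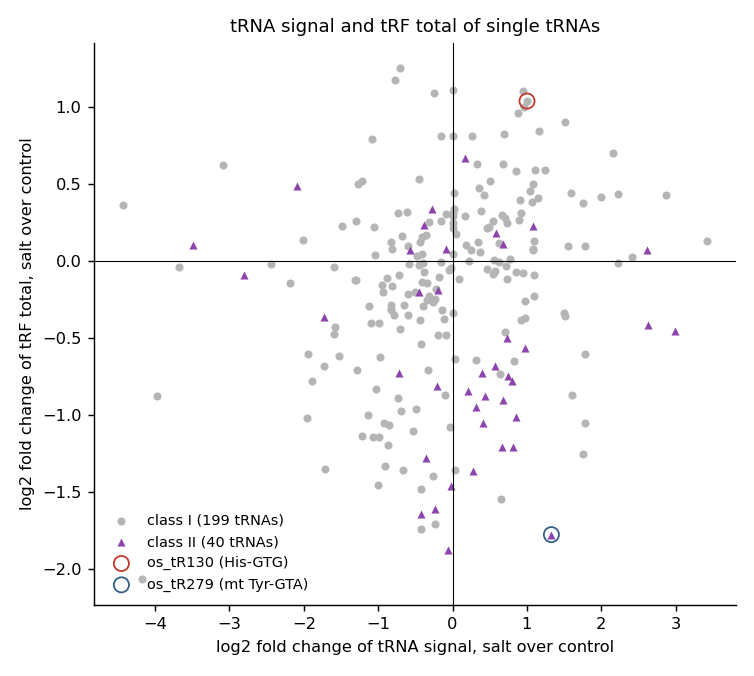
Log2 change of tRNA signal (horizontal) and of tRF total (vertical) in salt over control for 239 tRNAs, class II (40, triangles) and class I (199, circles), with rings around os_tR130 and os_tR279. Of the class II tRNAs, 29 lie below 0 for their tRF total, and 18 have a higher tRNA signal with a lower tRF total, against 28 of the class I tRNAs.

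The salt effect differed between root and shoot for many fragments. By the interaction test in limma, 45 of 272 tRF totals had a higher salt effect in root than in shoot (16.5%) and 127 a lower one (46.7%). The median difference was -0.37 on the log2 scale, and -0.01 after rescaling to equal table sums, where the counts were 79 and 95. Of the individual fragments 198 were higher (7.09%) and 269 lower (9.63%), against 276 and 205 after rescaling. The count higher in root was 112 without root salt library 1, 120 without root control library 1, 339 without shoot salt library 2, and 124 in a fit on the 8 root and shoot libraries of this comparison. Asn-GTT fragments fell by 1.28 on the log2 scale in root and rose by 1.02 in shoot, a difference of -2.29 (limma adjusted p = 1.51e-16). Glu-CTC fragments fell by 0.13 in root and rose by 1.07 in shoot. Glu-TTC fragments rose in both organs, by 0.94 in root and 1.20 in shoot. His-GTG fragments rose by 0.83 in root and by 0.32 in shoot, and the His 35-nt 5'-half by 3.38 in root and 1.25 in shoot. Mitochondrial Tyr fragments fell in both, by 1.78 in root and 0.84 in shoot.

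Cold root shares the control libraries with salt root, so the log2 changes are set side by side. Salt and cold root were also compared directly, with 62 of 272 tRF totals higher in salt (22.8%) and 120 lower (44.1%), and with 154 individual fragments higher (5.51%) and 191 lower (6.84%). The individual counts were 88 to 94 higher and 119 to 156 lower when 1 salt or cold library was left out. His-GTG fragments changed by 0.83 in salt and -0.23 in cold, a direct difference of 1.06 (limma adjusted p = 4.64e-18). The His 33-nt fragment changed by 2.19 in salt and -0.49 in cold, and the 35-nt 5'-half by 3.38 in salt and -0.01 in cold. Glu-TTC fragments changed by 0.94 in salt and 0.53 in cold, and mitochondrial Tyr fragments by -1.78 in salt and -0.64 in cold. The Arg-ACG 18-nt fragment changed by 0.79 in salt and -0.71 in cold.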

How the data were processed

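Small RNA reads were trimmed with cutadapt, per the submitters' processing notes; its version, the aligner, the rice build and the handling of multi-mapping reads: not given in the sources used here. Deposited log2 values of RPM cover 299 tRNAs, the tRF total of each tRNA and 2794 individual tRFs, per the file headers. The headers give an offset of 1 RPM. Values were turned back to RPM with an offset of 1 for individual tRFs but 0.5 for the per-tRNA tables, the offsets at which 100% of values were whole reads within 0.05 in every library. In the tRF tables of 2 libraries, 1 of them root salt library 2, either offset did. A tRF total under 0.5 RPM is listed at 0 by the authors. The tRNA and tRF tables are scaled by different totals.

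Features averaging 1 RPM or more were fitted as log2(RPM + 1) in limma 3.58.1 (R 4.3.3) with a trended variance over all 14 rice libraries, so that the groups share 1 estimate of spread. Fold changes on this scale understate those of low features. P-values were adjusted by Benjamini-Hochberg over each whole table, with a threshold of 0.05. Features with identical values were joined (294 to 293 tRF totals). The fit was also run on simulated fragments whose spread was set from these replicates, which cannot show how separate plants would vary. Shares were compared by an exact permutation test.

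Named features were, at each level, the 8 largest called changes each way whose mean reached 10 RPM and whose groups stood apart, the 6 most abundant, and the most abundant of each origin, class and family. Members and lists were chosen with earlier results of these data known. The class II list, the cut positions and the 20-nt Ala-CGC form were chosen after their values were seen. Starts of loci count from 0 in the table, and 1 was added. Of 2794 fragments, 1081 have a mismatch and 218 match several families. Alternatives were rescaling, pseudocount, filter, fragments without mismatch, the compared libraries alone, a replicate block and leaving out each library.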

Additional observations from a re-analysis of the deposited data

Results flagged for a closer look

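The salt effect in root differed from that in shoot, by the interaction test in limma, for 13 of the 16 tRF totals and 10 of the 16 individual fragments with the largest changes in root. These were chosen by their change in the same root libraries, which favours a difference. Over all features, 45 of 272 tRF totals were called higher and 127 lower, and 198 of 2794 fragments higher and 269 lower. Differences are root minus shoot on the log2 scale. Among tRF totals that rose in root, the difference was 0.73 for His-GTG os_tR130 and 1.15 for plastid Arg-ACG os_tR12. It was -0.18 for Glu-TTC os_tR106, -0.23 for Glu-TTC os_tR105 and -0.67 for Met-CAT os_tR182. The tRF table summed to 146119 and 146214 RPM in shoot salt, against 115042 and 115063 RPM in shoot control. In root it summed to 119444 and 119167 RPM in salt and 122864 and 121934 RPM in control. Differences here are not rescaled, so these unequal sums lower them. The median difference given above lay below the Glu-TTC values and all but vanished after rescaling. The Glu-TTC values therefore do not show a larger rise in shoot. Among totals that fell in root, the Ser tRNAs had differences of -3.97 for os_tR228 and -1.88 for os_tR229 (both Ser-AGA), -2.32 for os_tR249 and -1.40 for os_tR246 (both Ser-TGA), and -1.56 for mitochondrial Ser-GGA os_tR244. The difference was -2.08 for Glu-CTC os_tR95 and -0.94 for mitochondrial Tyr-GTA os_tR279. For os_tR168, a nuclear Lys-TTT copy that resembles a mitochondrial tRNA, it was -2.21.

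Among individual fragments, the difference was 2.13 for the His-GTG 35-nt 5'-half and 1.63 for the 33-nt tRF-5. It was 0.84 and 1.40 for the Ala-CGC 21-nt fragments and 1.03 for the Ala-TGC 21-nt fragment. It was -2.19 for the Gly-TCC 19-nt fragment, -1.93 and -1.60 for the mitochondrial Tyr-GTA 33-nt and 34-nt tRF-3, -2.57 for a 37-nt tRF-3 matching mitochondrial and plastid Ser-GGA, and -2.38 for a Glu-CTC 40-nt 3'-half.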

How the results depend on the processing

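For salt against control root, named features called in the main fit kept their direction under every alternative run. Of 3012 values, 2771 kept their side of the threshold, 195 lost the call, 46 gained it and 0 called ones reversed. A change of sign in a feature not called was not counted, and the root minus shoot and salt against cold contrasts were not in this count. With only the libraries of the groups compared in each case, 15 tRNAs and 12 tRNA families were called up, 3 ratios up and 6 down, 124 individual fragments up in root minus shoot, and 236 up in salt against cold. Rescaling to equal table sums left 10 tRNA families down and called 79 tRF totals up in root minus shoot. A pseudocount of 5 RPM gave 17 ratios up, and a filter of 10 RPM gave 131 individual fragments up in root minus shoot. Without mismatched fragments the tRF-5 share difference was -1.87 points and the CCA-ending share difference -3.13, against 2.28 and 0.06 points. The cause of these changes was not tested.

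Leaving out 1 library gave 30 to 39 tRNAs up and 24 to 39 down, 50 to 57 tRF totals up and 83 to 101 down, and 76 to 100 individual fragments up and 85 to 104 down. It gave 13 to 25 tRNA families up and 12 to 20 down, and 11 to 19 ratios up and 23 to 37 down. For root minus shoot it gave 112 to 339 individual fragments up and 200 to 354 down, and for salt against cold 88 to 94 up and 119 to 156 down. The share of 3' fragments ending in CCA differed by -0.32 to 0.43 points, the lower without salt library 2. A lone library was assumed to vary like the other groups.

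With replicate number as a block, 145 individual fragments were called up and 163 down, 36 tRNAs up and 32 down, and 57 tRF totals up and 97 down. The numbers share no stated batch. Deviations of same-numbered libraries correlated at 0.26 between salt and control root in individual fragments, and at 0.20 to 0.44 over all 21 pairs of rice groups there. Between salt and control root it was 0.07 in tRNAs and 0.04 in tRF totals. Counting organelle-like nuclear copies with the organelle, chosen after seeing the data, kept the direction of the plastid and mitochondrial shares. A count test in edgeR on the recovered reads was planned and not run.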
